A study of Vernicia fordii with 6 samples.

Results

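The small RNA and gene silencing machinery of the tung tree (Vernicia fordii) was described from the flower transcriptome. Its members were the unigenes (assembled transcript sequences) whose best SwissProt match is described as an argonaute, a Dicer, an RNA-dependent RNA polymerase, a gene silencing protein, SERRATE, a double-stranded RNA-binding protein, a small RNA methyltransferase or nuclease, or a subunit of RNA polymerase IV or V. The rule found 60 of the 56065 unigenes, matching 39 SwissProt entries, and 35 of the 60 shared their entry with another member. Gene names are therefore those of homologs in other plants, mainly Arabidopsis and rice. The members were 360 to 6295 bp long with a median of 2137 bp, against a median of 682 bp for all unigenes.

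The study asked which genes differ between the sexes when unisexual flowers first diverge, at stage 7 of flower development, as the gynoecium forms in female buds and the centre of male buds is arrested. RNA from 3 samples of male and 3 of female flower buds at this stage was sequenced, collected from 4-year-old trees of the local cultivar Duisuitong, which carry flowers of both sexes on the same plant. Each sample pooled many flowers, the study describes the samples as biological replicates, and the sources name no treatment or genetic change. In such whole buds, fewer cells of a type and less RNA per cell cannot be told apart.

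In plants, RNA polymerase IV and RNA-dependent RNA polymerases supply double-stranded RNA, which Dicer proteins cut into small RNAs, and hairpin transcripts are cut into microRNAs (miRNAs) by the same family. The small RNAs are methylated at their ends by HEN1 and loaded into argonautes, which cleave or repress matching transcripts or, with RNA polymerase V, guide DNA methylation. In Arabidopsis flowers, this machinery is known for setting organ polarity, meristem size and the silencing of transposons in germ cells.

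Reads counted on unigenes numbered 14099287 to 16849489 in male libraries and 11467832 to 40385019 in female libraries. The 5 unigenes with the most reads took 4.46 to 36.9% of the reads in male and 1.12 to 54.9% in female libraries, and the 54.9% was in female replicate 3. This library stood apart from its group, with Pearson's r across unigenes of 0.800 and 0.796 with the other female libraries, whose own r was 0.940. Its r with male replicates 2 and 3 was 0.813 and 0.824, higher than with either female library. Its scaled total was 3648171 reads, so that 1 read was worth 0.274 CPM (counts per 1000000 scaled reads), against 0.0136 CPM in female replicate 2. Tested members had a median of 40 reads there and 1417 in female replicate 2. CPM are scaled by TMM (trimmed mean of M-values), which corrects library totals for a few very abundant unigenes. All 10 unigenes of the floral organ identity list had reads in both sexes. The list was matched by name and so also took up ULTRAPETALA 1 (contig_5202 and contig_15644) beside the organ identity genes. The summed level of 26 pollen markers was 1156 to 1640 CPM in male and 167 to 341 CPM in female libraries. Plastid-encoded photosynthesis unigenes (6) summed to 5905, 561 and 403 CPM in male replicates 1, 2 and 3 and to 172, 84.6 and 2799 CPM in female replicates 1, 2 and 3. Male replicate 1 and female replicate 3 were thus highest both for these unigenes and for the share of the top 5. The part of these differences in the results that follow was not tested.

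Transcripts of the machinery were present in both sexes, and the members as a group held 0.131 to 0.219% of the reads in male and 0.0547 to 0.415% in female libraries. The levels spanned a wide range in RPKM (reads scaled by unigene length and library size), which allows unigenes of different length to be compared. AGO4A (contig_1463) had the highest mean over the 6 libraries (113 RPKM), followed by AGO1 (contig_943, 92.7 RPKM), another AGO4A unigene (First_Contig9, 64.7 RPKM) and SGS3 (contig_2309, 48.3 RPKM). Argonautes took 43.0 to 46.8% of the summed RPKM of the members in male and 42.6 to 57.4% in female libraries. Dicers took 9.39 to 11.2% in male and 7.89 to 13.5% in female libraries. RNA-dependent RNA polymerases took 9.09 to 9.44% in male and 6.58 to 11.1% in female libraries. The ranges of the sexes overlapped for these 3 classes, and for each class female replicate 3 lay at one end.

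**Figure D1:**
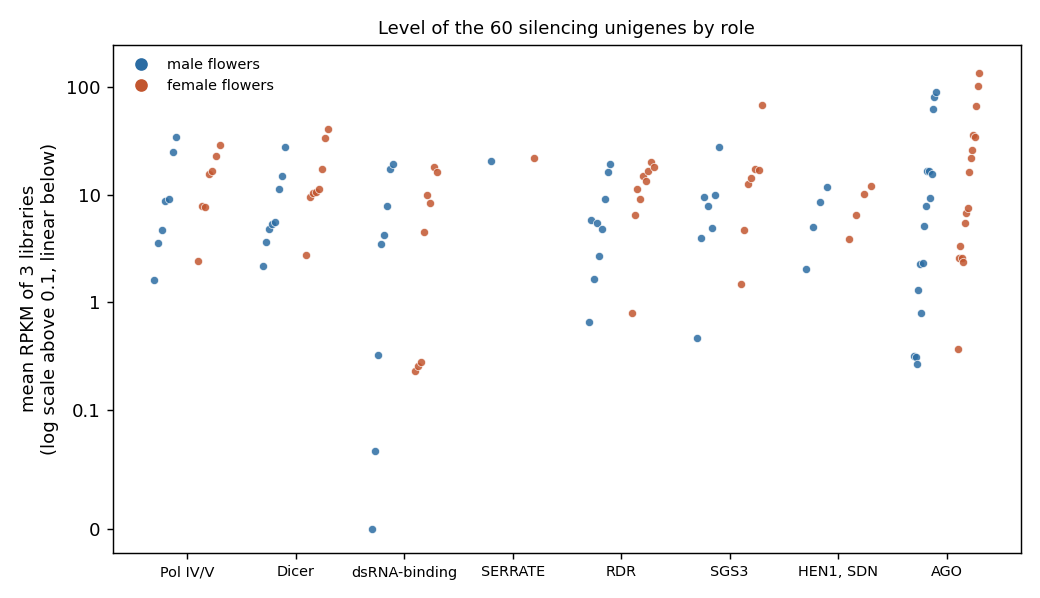
Mean RPKM of the 3 male libraries (blue, left) and the 3 female libraries (orange, right) for each of the 60 members, by role, on a log axis that is linear below 0.1. The argonautes hold the 3 highest means, and 4 members (3 double-stranded RNA-binding and 1 argonaute) average below 0.5 RPKM over all libraries.

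The sexes were compared by edgeR's quasi-likelihood test, with p-values adjusted by Benjamini-Hochberg over the 29327 unigenes that passed its expression filter, and log2 differences are male minus female. Calls required an adjusted p under 0.05 with a difference of 2-fold or more. The filter kept 55 members. The other 5 were AGO4A (contig_6372), AGO3 (contig_31975), DRB3 (contig_21918) and a pair annotated as DRB4 (contig_39400 and contig_56825), with 10 to 334 reads in all. None of the 55 was called, where the same test called 1.7% of all unigenes tested (1.56% higher in male and 0.143% higher in female flowers). The lowest adjusted p of a member was 0.147. An unadjusted p under 0.05 was found for 6 members higher in female flowers (10.9%, against 7.42% of all unigenes) and for 1 higher in male flowers (1.82%, against 5.75%). Of tested unigenes with a SwissProt match, which all members have, 4.56% reached this p higher in female flowers. On the same unigenes DESeq2 called 3 members, all higher in female flowers (2.03% of all unigenes in that direction). Limma called none, where it called 351 of all unigenes in either direction. Without female replicate 3, edgeR called 3 members of 56, also all higher in female flowers (0.789% of all unigenes in that direction). The smallest p that exact two-sided permutation of 3 and 3 libraries allows for 1 unigene is 0.1.

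The median log2 difference of the members was -0.26, against -0.086 over all unigenes tested and 0.071 over those with a SwissProt match. A value below 0 was found for 40 of the 55 (72.7%), against 54.5% of all unigenes tested and 45.4% of those with a SwissProt match. Both measures depended on single libraries and on scaling. Without male replicate 3 the median was -0.012 over the members and -0.16 over all unigenes, and the shares below 0 were 51.8% and 56.9%. Without female replicate 2 the median over the members was -0.12. The shares were, with library totals in place of TMM, 92.7% of the members and 69.9% of all unigenes. A log2 difference of -1 or below was found for 7 members (12.7%, against 16.1% of all unigenes) and one of 1 or above for none (against 6.31%).

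**Figure D2:**
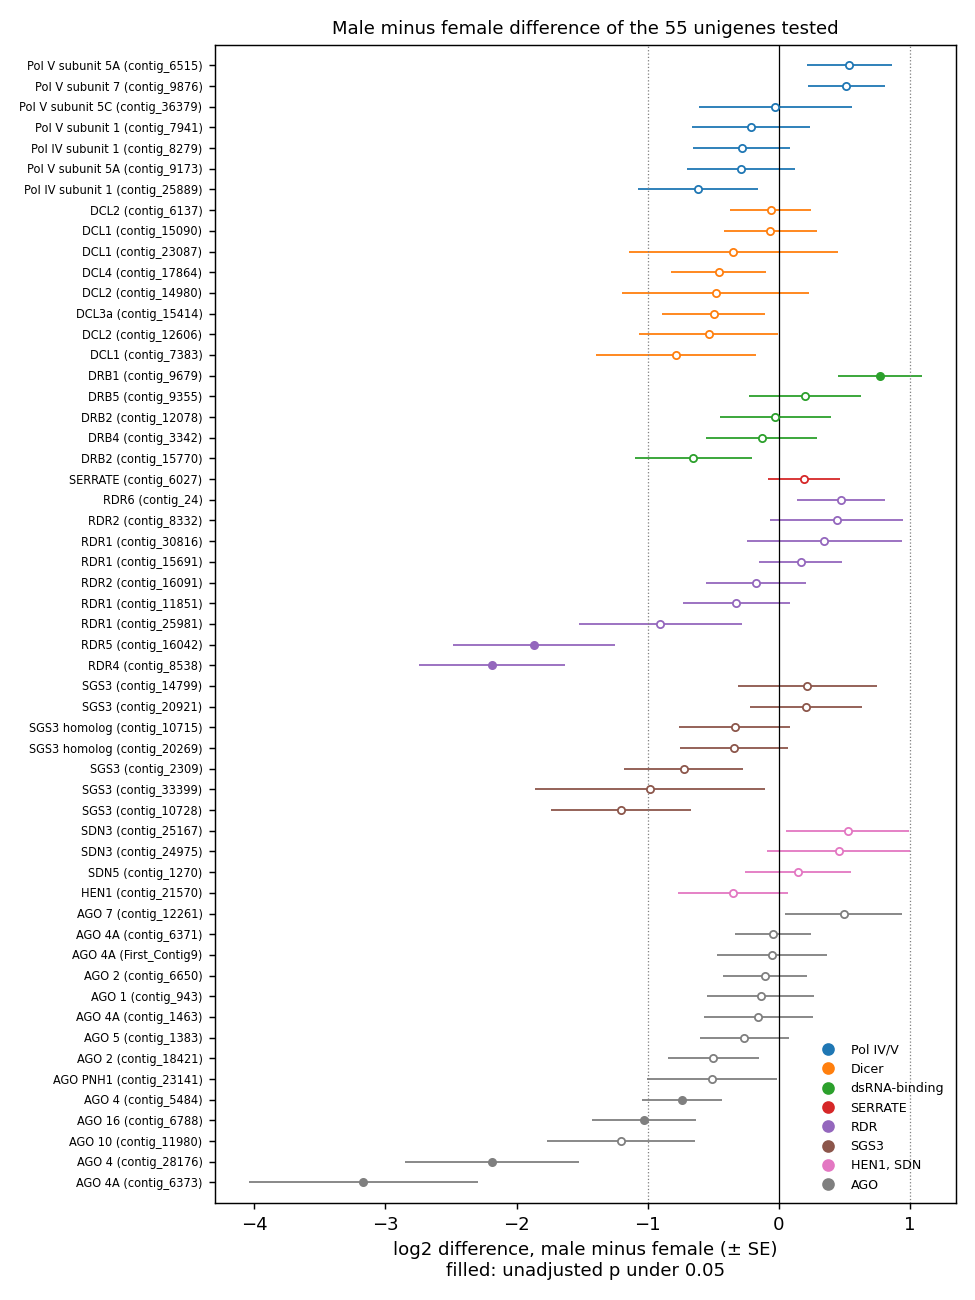
Log2 difference, male minus female, with its SE for the 55 members tested, by role, where filled points mark an unadjusted p under 0.05. The 7 members at -1 or below are RDR4, RDR5, an SGS3, AGO10, AGO16 and a pair annotated as AGO4 and AGO4A, and no member reaches 1.

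Some RNAs of the silencing pathways are transcribed by RNA polymerases IV and V, which differ from RNA polymerase II in some subunits, among them the largest. Their 7 unigenes had log2 differences of -0.61 to 0.54 with a median of -0.22, and none had an unadjusted p under 0.05. The sign of this median rested on single libraries, since it was 0.046 without male replicate 2 and 0.070 without male replicate 3. The largest subunit of Pol IV (contig_8279) was at 38.9, 40.9 and 39.3 CPM in male replicates 1, 2 and 3 and at 56.6, 61.8 and 26.0 CPM in female replicates 1, 2 and 3. The largest subunit of Pol V (contig_7941) was at 91.0, 45.1 and 45.5 CPM in male libraries and at 81.7, 90.1 and 38.4 CPM in female libraries. In both, female replicate 3 lay below every male library. Subunit 7 of Pol V (contig_9876), the highest of the 7 by RPKM, had 24.6, 35.8 and 36.6 CPM in male and 20.2, 22.6 and 25.2 CPM in female libraries. With a log2 difference of 0.51 (SE 0.29), it had an adjusted p of 0.494 by edgeR's quasi-likelihood test, and male replicate 1 lay within the female range.

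The 8 Dicer unigenes matched DCL1 (3), DCL2 (3), DCL3a and DCL4. In Arabidopsis, DCL1 cuts miRNAs, DCL3 the small interfering RNAs that guide DNA methylation, and DCL2 and DCL4 those made from viral and other double-stranded RNA. All 8 had log2 differences below 0, from -0.78 to -0.064 with a median of -0.47 (-0.62 to -0.19 with each library left out), and none had an unadjusted p under 0.05. Without female replicate 2 or without male replicate 3 only 5 of the 8 lay below 0. DCL4 (contig_17864) had 27.1, 30.3 and 29.4 CPM in male libraries and 44.1, 52.5 and 22.2 CPM in female libraries. DCL3a (contig_15414) followed the same order, with 30.5, 26.2 and 26.4 CPM in male and 50.2, 47.4 and 19.2 CPM in female libraries. Female replicates 1 and 2 lay above all male libraries in both unigenes, and female replicate 3 lay below all of them. The highest of the Dicers by RPKM, DCL2 (contig_6137), also had female libraries on both sides of the male ones. It had 38.7, 39.9 and 38.2 CPM in male and 47.2, 46.8 and 27.7 CPM in female libraries. Its log2 difference was -0.064 (SE 0.31), with an adjusted p of 0.947 by edgeR's quasi-likelihood test, and its sign turned under 7 of 19 alternatives.

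Partners of the Dicers gave the only member with an unadjusted p under 0.05 on the male side. DRB1 (contig_9679), known in Arabidopsis as HYL1 and needed there with DCL1 and SERRATE for accurate miRNA processing, had 45.4, 25.7 and 35.7 CPM in male and 24.4, 20.8 and 17.3 CPM in female libraries. Every male library lay above every female library, with male replicate 2 close to female replicate 1. The log2 difference was 0.77 (SE 0.32), the unadjusted p 0.0437 and the adjusted p 0.363 by edgeR's quasi-likelihood test. The other 4 DRB unigenes tested had values between -0.65 and 0.20. The median of the 5 was -0.028, and 0.58 without female replicate 3. DRB4 (contig_3342), the partner of DCL4 in Arabidopsis, had 31.4, 30.3 and 34.0 CPM in male and 20.8, 25.6 and 59.2 CPM in female libraries, and DRB2 (contig_12078) had 23.0, 13.3 and 15.8 CPM in male and 13.8, 11.7 and 28.2 CPM in female libraries. In both unigenes female replicate 3 was the highest of the 6 libraries, and in DRB4 the other female libraries lay below all male libraries. SERRATE (contig_6027) had 63.1, 56.1 and 57.7 CPM in male and 44.9, 51.4 and 58.9 CPM in female libraries, with overlapping groups. Its log2 difference of 0.19 (SE 0.28; adjusted p 0.802 by edgeR's quasi-likelihood test) turned to -0.11 with library totals in place of TMM.

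RNA-dependent RNA polymerases turn single-stranded transcripts into double strands, and in Arabidopsis RDR2 acts with Pol IV and RDR6 with SGS3. Their 9 unigenes included the member with the lowest p, and they had log2 differences between -2.19 and 0.47. Their median was -0.18, and it turned to 0.031 without male replicate 3 and to 0.035 without female replicate 2. RDR4 (contig_8538) had 3.40, 2.44 and 1.30 CPM in male and 12.7, 14.6 and 4.66 CPM in female libraries. Every female library lay above every male library, although female replicate 3 held only 17 reads of this unigene. The log2 difference was -2.19 (SE 0.55), with an unadjusted p of 0.00441 and an adjusted p of 0.147 by edgeR's quasi-likelihood test. With the replicate number as a block, which compares buds of both sexes of the same number, the log2 difference was -2.13 (SE 0.38) and the adjusted p 0.0499, and the unigene was called (0.181% of all unigenes in that direction). It was also called by DESeq2 (adjusted p 0.00779), and by edgeR without female replicate 3 (log2 difference -2.38, SE 0.43, adjusted p 0.0406). With the block and without that library no member was called, where 0.0837% of all unigenes were called higher in female flowers. In that fit male replicate 3 has no partner of its number.

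RDR5 (contig_16042) is annotated, like RDR4, as a probable polymerase of a type whose role in Arabidopsis is little known. It had 3.05, 3.58 and 2.03 CPM in male and 11.98, 16.3 and 2.74 CPM in female libraries. Female replicates 1 and 2 lay far above the male libraries, and female replicate 3, with 10 reads, lay among them. The log2 difference was -1.87 (SE 0.62; unadjusted p 0.0167, adjusted p 0.267 by edgeR's quasi-likelihood test), and without female replicate 3 it was -2.14 (SE 0.37, adjusted p 0.0355) and called. RDR6 (contig_24), which makes the precursors of trans-acting small interfering RNAs (tasiRNAs) in Arabidopsis, lay on the other side, with 122, 71.4 and 75.0 CPM in male and 61.9, 63.3 and 68.8 CPM in female libraries. The groups did not overlap, but male replicate 2 and female replicate 3 lay close together. With a log2 difference of 0.47 (SE 0.33), its adjusted p was 0.585 by edgeR's quasi-likelihood test. The 6 unigenes of RDR1 and RDR2 had values from -0.90 to 0.44, and none had an unadjusted p under 0.05.

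SGS3 (SUPPRESSOR OF GENE SILENCING 3), the partner of RDR6, matched 7 unigenes with log2 differences of -1.20 to 0.22 and a median of -0.35 (-0.54 to -0.12 with each library left out). The most abundant, contig_2309, is one of the genes that the study lists among its DEGs from these samples, so that its direction here is no independent evidence. It had 101, 123 and 101 CPM in male and 211, 240 and 84.4 CPM in female libraries. Female replicates 1 and 2 were well above the male libraries and female replicate 3 below them. The log2 difference was -0.73 (SE 0.45), with an adjusted p of 0.535 by edgeR's quasi-likelihood test, and without female replicate 3 it was -0.92 (adjusted p 0.0992). The unigene with the largest difference in this class, contig_10728, was chosen after its values were seen. It had 8.20, 5.24 and 3.40 CPM in male and 19.2, 13.7 and 5.21 CPM in female libraries. Its log2 difference was -1.20 (SE 0.54; adjusted p 0.393 by edgeR's quasi-likelihood test), and female replicate 3 lay within the male range.

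Small RNAs are protected by HEN1 and degraded by SDN nucleases. Their 4 unigenes had log2 differences of -0.35 to 0.52 with a median of 0.30 (0.071 to 0.62 with each library left out), which turned to -0.33 with library totals in place of TMM. HEN1 (contig_21570) had 8.63, 5.72 and 5.19 CPM in male and 10.6, 9.23 and 4.66 CPM in female libraries. SDN3 (contig_25167), the highest of the class by RPKM, had 17.8, 6.46 and 7.46 CPM in male and 9.42, 6.63 and 5.76 CPM in female libraries. Male replicate 1 alone stood above the other libraries, and the log2 difference of SDN3 was 0.52 (SE 0.47; adjusted p 0.670 by edgeR's quasi-likelihood test), or -0.038 with library totals.

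The argonautes were the largest class, with 16 unigenes, 14 of them tested. Log2 differences lay between -3.17 and 0.49 (median -0.38), and 13 of the 14 lay below 0 (12 of 14 with the replicate number as a block, 11 of 15 without female replicate 3 and 10 of 15 without male replicate 3). An unadjusted p under 0.05 was found for 4 of them, all higher in female flowers. The exception to the direction was AGO7 (contig_12261), which binds the miRNA that starts tasiRNA production in Arabidopsis, with 14.6, 5.76 and 6.81 CPM in male and 6.57, 7.56 and 4.93 CPM in female libraries. AGO1 (contig_943), the main argonaute of miRNAs, was at 359, 286 and 272 CPM in male and 298, 287 and 426 CPM in female libraries, with overlapping groups.

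AGO4 and its rice relative AGO4A bind the small interfering RNAs that direct DNA methylation, and 7 unigenes carried these names. The most abundant, contig_1463, had 342, 216 and 171 CPM in male and 266, 291 and 257 CPM in female libraries. No difference beyond the replicate spread was found, with a log2 difference of -0.16 (SE 0.42; adjusted p 0.901 by edgeR's quasi-likelihood test) that turned to 0.15 without male replicate 3. A far less abundant AGO4 unigene, contig_28176 (mean of 3.12 RPKM), had 1.66, 3.23 and 2.19 CPM in male and 10.2, 18.9 and 2.74 CPM in female libraries. Female replicates 1 and 2 lay above all male libraries and female replicate 3, with 10 reads, among them. The log2 difference was -2.19 (SE 0.66; unadjusted p 0.0110, adjusted p 0.228 by edgeR's quasi-likelihood test). DESeq2 called this unigene (adjusted p 0.0368), and so did edgeR without female replicate 3 (-2.46, SE 0.44, adjusted p 0.0403).

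The largest difference among the members belonged to another AGO4A unigene of low level, contig_6373. It had 0, 11 and 6 reads in male replicates 1, 2 and 3, or 0, 0.480 and 0.486 CPM, where 3 reads in male replicate 1 are worth 0.262 CPM. Female replicates 1, 2 and 3 had 154, 332 and 6 reads, or 2.76, 4.51 and 1.64 CPM. Every female library lay above every male library, with a log2 difference of -3.17 (SE 0.87; unadjusted p 0.00683, adjusted p 0.181 by edgeR's quasi-likelihood test). DESeq2 called it with an adjusted p of 0.00389, and edgeR without female replicate 3 gave an adjusted p of 0.0808. AGO4 (contig_5484), of moderate level, had 38.5, 43.4 and 33.6 CPM in male and 58.4, 82.1 and 52.1 CPM in female libraries, again without overlap. The log2 difference of this unigene was -0.74 (SE 0.31; unadjusted p 0.0434, adjusted p 0.363 by edgeR's quasi-likelihood test). The untested AGO4A unigene contig_6372 had 6, 4 and 5 reads in male and 94, 225 and 0 reads in female replicates 1, 2 and 3.

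Several of these unigenes have the same best match in the NR protein database, and pieces of 1 gene and near copies of it cannot be told apart from the deposited table. The sources used here do not give how reads shared by such unigenes were counted, so that their separate values are uncertain. Among tested members, 22 fell into 9 groups with a shared match, and the spread of log2 differences within a group was 0.069 to 3.12 with a median of 0.82. The widest spread was in the group of contig_5484, contig_6371 and contig_6373, and the next, of 2.03, was between contig_1463 and contig_28176. With reads summed per SwissProt entry, the log2 difference was -0.14 for the entry of contig_6373, which also holds the abundant contig_1463, and -0.87 for that of contig_28176 and contig_5484.

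AGO16 (contig_6788), a rice-annotated argonaute, had 11.3, 6.90 and 5.19 CPM in male and 16.7, 19.3 and 11.5 CPM in female libraries. The groups did not overlap, but male replicate 1 and female replicate 3 differed little. Its log2 difference was -1.03 (SE 0.40; unadjusted p 0.0316, adjusted p 0.330 by edgeR's quasi-likelihood test). AGO10 (contig_11980) withholds the miRNAs of HD-ZIP III transcripts from AGO1 in Arabidopsis and maintains the shoot meristem there, and the study lists it among its DEGs from these samples. It had 56.1, 23.7 and 27.1 CPM in male and 90.8, 124 and 30.7 CPM in female libraries. Female replicates 1 and 2 were above all male libraries, and female replicate 3 was within the male range. The log2 difference was -1.21 (SE 0.57; unadjusted p 0.0660, adjusted p 0.413 by edgeR's quasi-likelihood test), and without female replicate 3 it was -1.46 (adjusted p 0.0862).

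**Figure D3:**
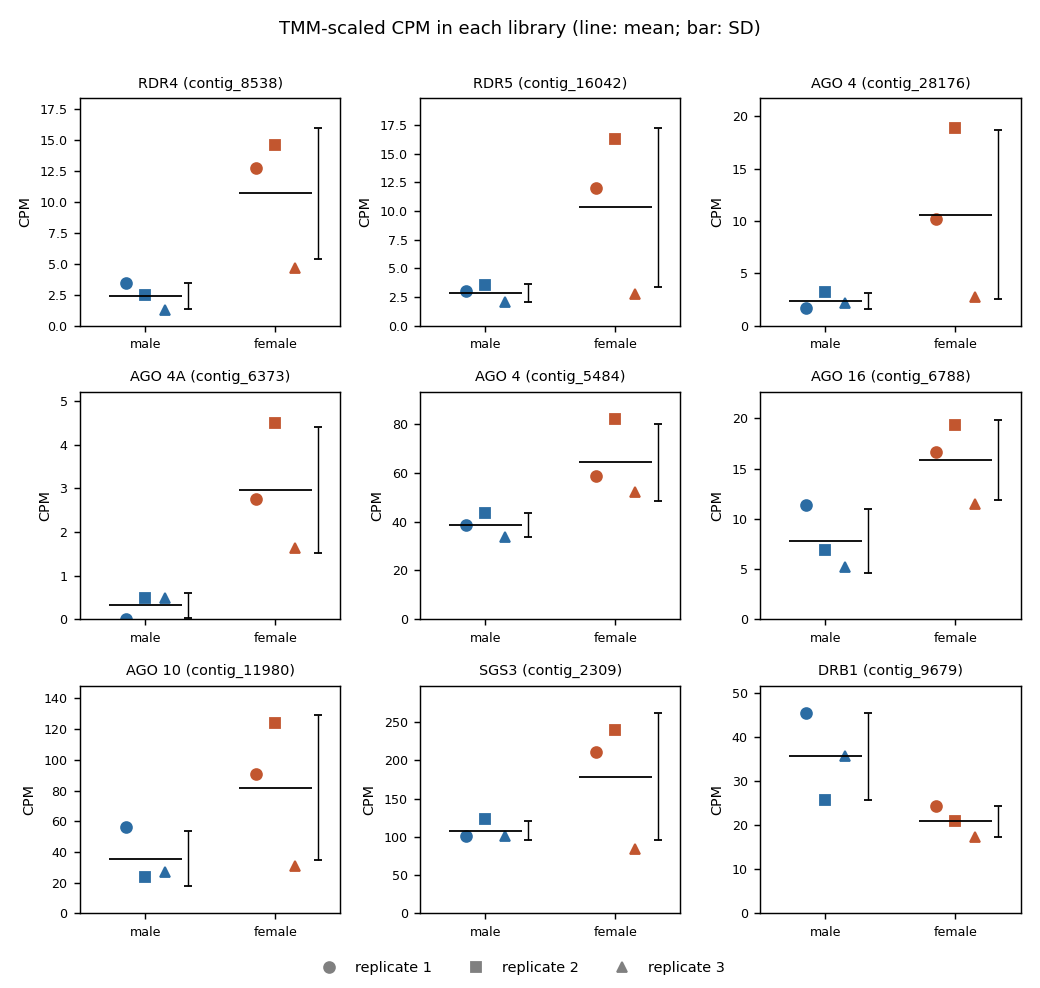
TMM-scaled CPM in each male (blue, left) and female (orange, right) library for 9 members, with the mean (line) and SD (bar) of 3 libraries and the replicate number as symbol. Female replicate 3 (triangle) is the lowest female library in all 9, and in RDR5, AGO4 (contig_28176), AGO10 and SGS3 it lies within or below the male range (in DRB1 all female libraries lie below it).

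Because female replicate 3 entered every comparison, its place was counted over all 55 members tested. It was the lowest female library in 44 of them (80.0%, against 51.5% of all unigenes tested) and the lowest of all 6 libraries in 30. Female replicates 1 and 2 lay above all male libraries in 25 members (45.5%, against 25.5% of all unigenes) and below all of them in 7 (12.7%, against 22.3%). With female replicate 3 included, no overlap remained in 4 members with female above male (7.27%, against 9.06%) and in 3 with male above female (5.45%, against 10.4%). The 4 were RDR4, AGO4A (contig_6373), AGO4 (contig_5484) and AGO16, and the 3 were DRB1, RDR6 and a Pol V subunit (contig_6515). On the deposited RPKM, without TMM, no member separated the sexes in either direction (1.28% of all unigenes with female above, 3.46% with male above). Without female replicate 3, an unadjusted p under 0.05 was found for 13 of 56 members higher in female flowers (23.2%, against 15.8% of all unigenes) and for 2 higher in male flowers (3.57%, against 14.1%).

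**Figure D4:**
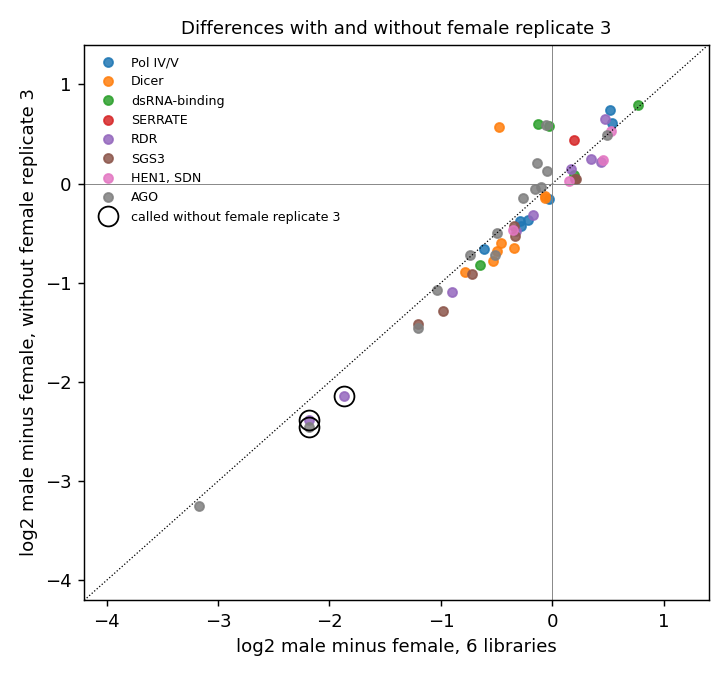
Log2 difference, male minus female, of each member with all 6 libraries (horizontal axis) and without female replicate 3 (vertical axis), coloured by role, with the dotted line marking equal values. The 3 circled members, called without that library, are RDR4, RDR5 and AGO4 (contig_28176), near -2 on the horizontal axis.

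Ratios between members of one library do not depend on scaling between libraries, and they were chosen after the values were seen and were not tested. The RPKM of RDR4 over that of RDR6 was 0.0845, 0.104 and 0.0526 in male and 0.627, 0.702 and 0.206 in female replicates 1, 2 and 3, so that each female library exceeded each male library. RDR4 and RDR6 had already separated the sexes in CPM, in opposite directions. The separation of their ratio was therefore fixed and adds no evidence. AGO10 over AGO1 was 0.162, 0.0861 and 0.103 in male and 0.317, 0.449 and 0.0747 in female libraries. SGS3 (contig_2309) over its partner RDR6 was 0.913, 1.91 and 1.49 in male and 3.79, 4.21 and 1.36 in female libraries. In these last ratios female replicates 1 and 2 were above all male libraries and female replicate 3 was not.

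**Figure D5:**
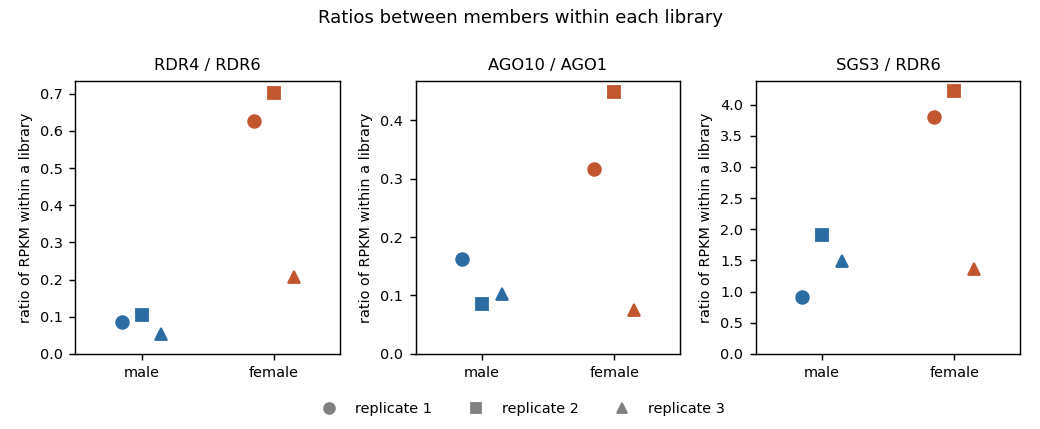
Ratio of RPKM between members within each male (blue, left) and female (orange, right) library for RDR4 to RDR6, AGO10 to AGO1 and SGS3 (contig_2309) to RDR6, with the replicate number as symbol. The ratio of RDR4 to RDR6 separates the sexes (at most 0.104 in male and at least 0.206 in female libraries), whereas the others overlap through female replicate 3 (triangle).

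Genes that work with the members were examined in 6 lists, which held 79 unigenes. Of the 75 tested, edgeR called none (1.7% of all unigenes), DESeq2 called 4, all higher in female flowers (5.33%, against 2.03% of all unigenes in that direction), limma called none, and the median log2 difference was -0.10. By edgeR 7 had an unadjusted p under 0.05, all higher in female flowers (9.33%). In that direction this p was found for 7.42% of all unigenes and 4.56% of those with a SwissProt match. No unigene reached it among 8 tested shared subunits of RNA polymerases IV and V, 17 of miRNA processing and export or 25 of RNA decay. Of 13 unigenes of RNA-directed DNA methylation, 1 did. This was the methyltransferase DRM1 (contig_19265), with 4.10, 5.33 and 4.21 CPM in male and 15.6, 17.8 and 3.29 CPM in female libraries and a log2 difference of -1.45 (SE 0.57; adjusted p 0.341 by edgeR's quasi-likelihood test). Female replicate 3 lay below all male libraries, and without it DRM1 was called (-1.72, adjusted p 0.0368).

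The remaining 6 of the 7 belonged to known targets of small RNAs. HD-ZIP III transcription factors, which set organ polarity and are cleaved under a miRNA in Arabidopsis, had 6 unigenes with log2 differences of -1.57 to -0.43 and a median of -0.87, and 4 had an unadjusted p under 0.05. ATHB-8 (contig_13540) had 7.15, 7.90 and 6.81 CPM in male and 21.2, 26.4 and 17.3 CPM in female libraries. Its log2 difference was -1.57 (SE 0.30) with an adjusted p of 0.0509 by edgeR's quasi-likelihood test, just outside the threshold, and 6 of 19 alternatives called it. REVOLUTA (contig_14078) had 12.4, 10.4 and 7.05 CPM in male and 25.8, 31.4 and 25.8 CPM in female libraries (log2 difference -1.48, SE 0.32, adjusted p 0.0845 by edgeR's quasi-likelihood test; called by DESeq2). In both, all female libraries, replicate 3 included, lay above all male libraries in CPM, as in 9.06% of all unigenes tested. On the deposited RPKM, without TMM, female replicate 3 lay below male replicate 1 in both (1.61 against 1.68 for ATHB-8, 4.07 against 4.94 for REVOLUTA). Of the auxin response factors related to tasiRNA targets, 6 were tested, with log2 differences of -2.29 to 0.49 and a median of -0.24. The ARF2 unigenes had 0.078 (contig_1490) and 0.49 (contig_3735), and the ARF3 unigenes 0.48 (contig_18010) and -0.55 (contig_1919). Both tested unigenes of ARF4 had an unadjusted p under 0.05. ARF4 contig_12820 had 11.2, 2.79 and 4.29 CPM in male and 26.1, 45.6 and 14.3 CPM in female libraries, with a log2 difference of -2.25 (adjusted p 0.190 by edgeR's quasi-likelihood test). ARF4 contig_10494 had 2.01, 0.655 and 0.891 CPM in male and 3.51, 6.64 and 7.13 CPM in female libraries, with a log2 difference of -2.29 (adjusted p 0.145 by edgeR's quasi-likelihood test). DESeq2 called both ARF4 unigenes, and the female libraries lay above all male libraries in CPM in each. On the deposited RPKM this held for contig_10494 but not for contig_12820, where female replicate 3 had 1.66 and male replicate 1 had 3.31.

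Lists named for other cell types did not all differ between the same libraries. The study describes tapetum, pollen and ovules at stages later than the stage 7 sampled here. The pollen list had 20 tested unigenes, of which 7 were called, all higher in male flowers, while 1 of its 26 had no read in any male library and 2 had none in any female library. Tapetum and microspore markers (4) summed to 64.0 to 97.8 CPM in male and 29.4 to 53.5 CPM in female libraries. Nearly all of this sum was ABORTED MICROSPORES (contig_5630), with 94.7, 60.7 and 62.9 CPM in male and 27.0, 31.0 and 46.3 CPM in female libraries, whereas the other tested unigenes of the list had log2 differences of -0.53 and -0.45. Carpel and ovule markers (4) summed to 25.4 to 38.5 CPM in male and 32.9 to 44.9 CPM in female libraries, with overlapping ranges. Neither of these last lists had a called unigene. Whether such cells were present, or had a part in the values of the silencing machinery, was not tested.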

How the data were processed

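Tung tree flower buds at stage 7 were compared between 3 male and 3 female samples. The authors removed adapters and low-quality reads, assembled the reads de novo with CLC Genomics Workbench 6.0.4 and CAP3, and deposited, for each unigene, its length, its best protein matches, the count of reads in each library and the RPKM value. No source used here names the program that counted reads. RPKM recomputed from the counts differed from the deposited RPKM by at most 4.73e-08 in relative terms. All 12 library columns were used, none (0) was left unused, and 7 lines without a unigene of their own were left out. The deposited table of DEGs holds the authors' group means, fold changes and test results. Of these values only the means were read, to settle that library columns marked an are male and those marked gy female (812 of 812 means were equal within a relative 0.001). That the study lists AGO10 and SGS3 (contig_2309) among its DEGs was also used, in the choice of named members.

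Members were taken from the SwissProt description after its first colon. The members and all gene lists were chosen with earlier results of these data known. Named members were those called, those with an unadjusted p under 0.05, the highest by RPKM in each role, and AGO10 and SGS3 (contig_2309), which the study lists. Other members given with values in each library were examples outside this rule, picked with their values known. They were AGO1, AGO7, DCL3a, DCL4, DRB2, DRB4, HEN1, the largest subunits of Pol IV and Pol V, and the untested contig_6372. SGS3 contig_10728 and the pathway unigenes given with values were chosen after their values were seen. Marker lists were pollen, tapetum and microspore, carpel and ovule, floral organ identity and plastid-encoded photosynthesis.

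The test was edgeR's quasi-likelihood F test (edgeR 4.0.16 in R 4.3.3, with filterByExpr, TMM and a prior count of 0.125). Python 3.11.15, pandas 2.3.3, numpy 2.4.6 and matplotlib 3.10.9 served for tables and figures. All 6 libraries entered the fit without a block, p-values were adjusted over all 29327 unigenes tested by Benjamini-Hochberg, and the SE was taken as the size of the log2 difference over the root of F. The biological coefficient of variation was 51.0%. TMM factors ran from 0.808 to 1.37 in male and from 0.319 to 1.86 in female libraries. The sources do not state that equal replicate numbers mark the same plant, so that the pairing used by the block is uncertain. The methods place buds of both sexes on the same plant. Male and female libraries of the same number deviated together from their group means (r of 0.19, 0.13 and 0.37, all above 0.1). Pairs of different numbers had r of -0.32 to 0.16, of which 1 (0.16, between male 1 and female 2) exceeded both 0.1 and the 0.13 of the same-numbered replicates 2.

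Other settings tried were the test without a filter or with a minimum mean RPKM of 5, scaling by median of ratios or by library totals, DESeq2 1.42.0, limma 3.58.1 on log2(RPKM + 1), with 0.1 and 5 as other pseudocounts, the block, no fold threshold, reads summed per SwissProt entry and each library left out. Chosen after seeing the data were DESeq2 and the block without female replicate 3, separation on RPKM as deposited, and ratios within a library. DEGseq was not run. Sequences of the unigenes were not used here.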

Additional observations from a re-analysis of the deposited data

How the results depend on the processing

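No member was called higher in male flowers under any alternative. Members called higher in female flowers numbered 3 with DESeq2, 2 with DESeq2 on all unigenes (against 1.19% of all unigenes), 0 to 3 with each library left out (3 without female replicate 3) and 7 of 55 with DESeq2 without female replicate 3 (against 6.68% of all unigenes). The replicate block gave 1 (RDR4) and changed no other call, and with the block and without that library there were 0 (against 0.0837% of all unigenes). Members with an unadjusted p under 0.05 and higher in male flowers numbered 0 with a minimum mean RPKM of 5, with library totals, with limma at each pseudocount, and without female replicate 3 in DESeq2 or with the block, and 0 to 2 with each library left out. Those higher in female flowers numbered 1 with limma at pseudocounts of 1 and 0.1, 3 at 5 and 1 to 13 with each library left out. The 13 came without female replicate 3 (against 15.8% of all unigenes). DESeq2 without female replicate 3 gave 15 (against 13.2%), and the block without it gave 10 (against 9.51%). For limma, the minimum mean RPKM, library totals and the fits without another single library, the share of all unigenes at this p was not computed. Over all unigenes, calls numbered 802 without a filter, 287 with a minimum mean RPKM of 5, 1401 with DESeq2, 1766 with DESeq2 on all unigenes, 253 with limma at a pseudocount of 5, 317 with reads summed per entry, 269 to 970 with each library left out and 4235 with DESeq2 without female replicate 3. Calls among the other genes of the pathway numbered 1 without a filter, with a minimum mean RPKM of 5 and with median-of-ratios scaling, 4 with DESeq2, 5 with DESeq2 on all unigenes and also without female replicate 3, and 0 to 2 with each library left out. With library totals the median over members was -0.76, where that over all unigenes tested was -0.41. The sign turned for DCL2 contig_6137 (0.079 without a filter, 0.020 with DESeq2 on all unigenes, -0.13 to 0.080 with each library left out), SERRATE (-0.11 with library totals), SDN3 contig_25167 (-0.038 with library totals) and AGO4A contig_1463 (0.11 with the block without female replicate 3, -0.35 to 0.15 with each library left out). Of 299 values of 16 named members under alternatives, 272 kept direction and call, 16 passed the threshold and 11 turned. The cause was not tested. In female replicate 3, 7 members tested had fewer than 10 reads, which limits what that library can show.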

Other observations

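Further ratios of RPKM between members within a library, chosen after the values were seen and not tested, gave the following. RDR5 over RDR6 was 0.0986, 0.198 and 0.107 in male and 0.766, 1.02 and 0.158 in female replicates 1, 2 and 3, with female replicate 3 inside the male range. The AGO4 unigene contig_28176 over the AGO4A unigene contig_1463, which has the same best match in NR, was 0.00395, 0.0122 and 0.0104 in male and 0.0312, 0.0530 and 0.00868 in female libraries. AGO4A contig_6373 over AGO4 contig_5484 was 0, 0.0212 and 0.0277 in male and 0.0904, 0.105 and 0.0605 in female libraries, so that all female libraries lay above all male libraries. DRB1 over SERRATE, which act together on miRNA precursors in Arabidopsis, was 1.18, 0.755 and 1.02 in male and 0.895, 0.667 and 0.482 in female libraries, and the groups overlapped.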
